A study of Capra hircus with 3 samples.

Results

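Genes of the Schwann cell and its myelin were followed in a back muscle, longissimus dorsi, of the goat (Capra hircus) at 3 postnatal ages. The genes were taken by the product name that the deposited table gives to each entry: peripheral myelin protein 22 (PMP22, gene 102184371), myelin basic protein (MBP, 102176412), periaxin (PRX, 102187522), SRY-box 10 (SOX10, 102181279), S100 calcium binding protein B (S100B, 102169524) and cadherin 19 (CDH19, 102169348). All 6 had an entry among the 24689 of the table. The entry used for MBP was described as myelin basic protein-like and was named by this text alone, while the other 5 matched a RefSeq symbol by gene number. RNA was sequenced from kid (2 months), youth (9 months) and adult (24 months) goats, with 1 library per stage. The sources used here do not give breed, sex, treatment or the number of animals behind a library. With 1 library per stage there was no replicate check and no test between stages was run, so every value describes these libraries. The question put to them was how the transcripts of nerve-sheath cells in this muscle compare between ages.

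Schwann cells ensheath the axons of peripheral nerves, and within a muscle they line the motor and sensory nerve branches and cover the motor endings. Myelinating Schwann cells wrap an axon in stacked membrane whose compact part holds PMP22 and MBP, while PRX links the Schwann cell surface to its surroundings, and SOX10 switches on the myelin genes. S100B and CDH19 mark cells of the Schwann lineage whether or not they make myelin. S100B is also made by fat cells and PMP22 by fibroblasts. In RNA from whole muscle, fewer cells of a type and less RNA per cell cannot be told apart.

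The values were FPKM (mapped fragments relative to gene length and library total), and the reads behind them were recovered from the steps between values. The mapped totals they imply were 15829474 (kid), 14920689 (youth) and 18399385 (adult). A label on RNA extraction speaks of mammary tissue, against the longissimus dorsi of the tissue label. CKM and ACTA1, the muscle creatine kinase and the skeletal actin, stood between 14183 and 21435 FPKM in the 3 libraries, while CSN2, CSN3 and LALBA, which encode milk proteins, were at 0 in every library. Intervals given below are exact 95% intervals (Clopper-Pearson) of the reads of the 2 libraries compared, and cover counting error only. A gene is called lower or higher beyond counting error where this interval leaves out 1.

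PMP22, a membrane protein of compact myelin whose dosage is altered in common inherited neuropathies, was the most abundant of the 6 genes. It stood at 102 FPKM in kid (2964 reads), 63.3 in youth (1738 reads) and 33.6 in adult (1137 reads). The kid library was the highest and the adult library the lowest, with the youth library between them. PMP22 was 1.61-fold lower in youth than in kid (interval 1.51 to 1.71), lower again in adult by 1.88-fold (1.748 to 2.03), and 3.03-fold lower in adult than in kid (2.83 to 3.25).

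MBP, which draws the inner faces of the myelin membrane together, stood at 23.7 FPKM in kid (338 reads), 14.9 in youth (201 reads) and 14.04 in adult (233 reads). The kid library was high, and the youth and adult libraries lay close to each other. MBP was 1.59-fold lower in youth than in kid (1.33 to 1.90), and its adult to youth ratio of 0.94 had an interval that included 1 (0.775 to 1.14). PRX, the scaffold protein that ties the Schwann cell membrane through a dystroglycan complex to the basal lamina, had the same order, at 7.90 FPKM in kid (482 reads), 4.92 in youth (283 reads) and 4.54 in adult (322 reads). It was 1.61-fold lower in youth than in kid (1.38 to 1.87), and its adult to youth ratio was 0.923 (0.784 to 1.09). Between adult and kid, MBP was 1.69-fold lower (1.42 to 2.00) and PRX 1.74-fold lower (1.51 to 2.01).

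SOX10, the transcription factor of the Schwann lineage, was low throughout, at 1.11 FPKM in kid (44 reads), 0.779 in youth (29 reads) and 0.610 in adult (28 reads). CDH19, a cadherin of the Schwann cell lineage, stood at 0.942 FPKM in kid (47 reads), 0.723 in youth (34 reads) and 0.379 in adult (22 reads). A single read of SOX10 was worth 0.0253, 0.0269 and 0.0218 FPKM in kid, youth and adult, so these levels rest on few reads. At this depth the youth to kid ratio included 1 for SOX10 (0.699, 0.422 to 1.14) and for CDH19 (0.767, 0.479 to 1.22). Between adult and kid, SOX10 was 1.83-fold lower (1.11 to 3.05) and CDH19 2.48-fold lower (1.47 to 4.33). The adult to youth ratio was 0.783 for SOX10 (0.449 to 1.36), and CDH19 stood 1.91-fold below its youth level (1.08 to 3.42).

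S100B, a calcium-binding protein of Schwann cells, was alone among the 6 genes in having a higher level in adult than in youth. It stood at 15.9 FPKM in kid (380 reads), 8.72 in youth (197 reads) and 12.5 in adult (349 reads). The youth library was the lowest, and the adult library lay between youth and kid. S100B was 1.82-fold lower in youth than in kid (1.53 to 2.17), 1.44-fold higher in adult than in youth (1.20 to 1.72) and 1.27-fold lower in adult than in kid (1.09 to 1.47). With size factors from the median of ratios, the adult to kid ratio of S100B moved from 0.790 to 0.870 and its interval then included 1.

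**Figure D1:**
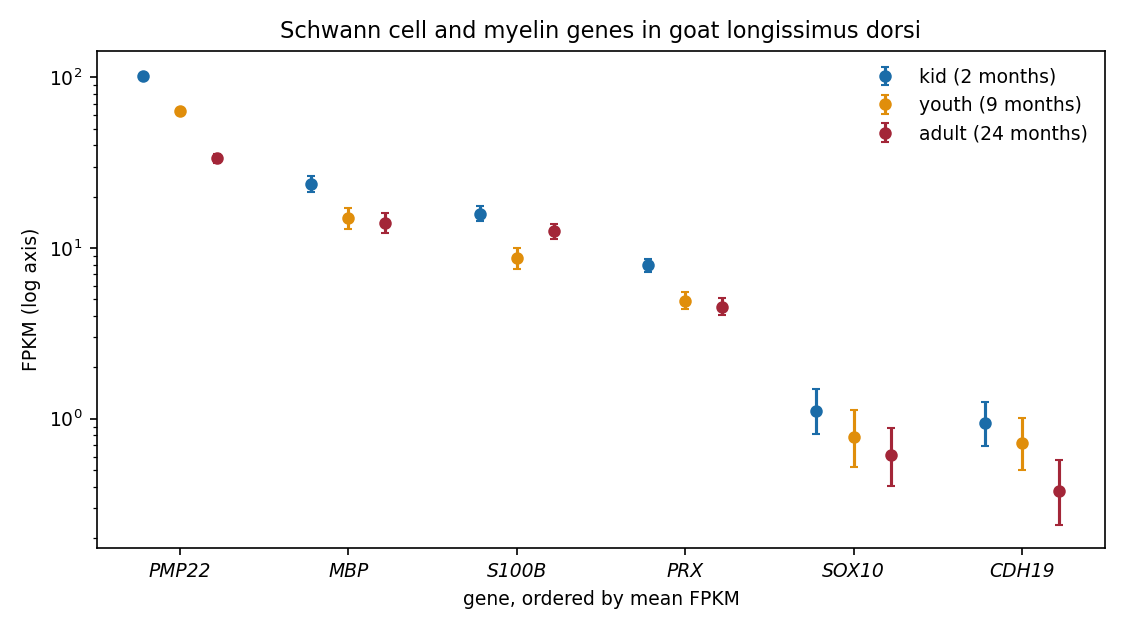
FPKM (log axis) of the 6 genes, ordered by their mean, in the kid, youth and adult libraries; each point is 1 library and the bars are exact 95% Poisson intervals of its reads. The kid library is highest for all 6 genes, and S100B alone has its adult point (12.5 FPKM) above its youth point (8.72 FPKM).

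Ordered by level per length, PMP22 led in each library, followed by MBP, S100B, PRX, SOX10 and CDH19. Neighbours in this order came within counting error of each other in 4 cases. In adult, MBP (Poisson interval 12.3 to 15.96 FPKM) and S100B (11.2 to 13.9) overlapped. SOX10 and CDH19 overlapped in kid (0.809 to 1.496 and 0.692 to 1.25) and youth (0.522 to 1.12 and 0.501 to 1.01) as well as in adult (0.405 to 0.882 and 0.238 to 0.574). The 6 genes summed to 151, 93.3 and 65.7 FPKM in the kid, youth and adult libraries, from 4255, 2482 and 2091 reads. PMP22 made up 67.3%, 67.8% and 51.1% of that sum.

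In youth against kid, all 6 genes had the lower value in youth, and 4 of 6 were lower beyond counting error: PMP22, MBP, PRX and S100B. Over the 12121 entries with a mean of at least 1 FPKM, 26.9% were lower and 11.6% higher beyond counting error, and 64.3% had the lower value in youth. The folds of these 4 ran from 1.59 (MBP) to 1.82 (S100B). On the scale of log2(FPKM + 1), which understates differences of low genes, the median difference of the 4 genes that reached a mean of 1 FPKM was -0.65, beside -0.08 over all 12121 entries. SOX10 and CDH19 did not reach that mean, and with them the median of the 6 was -0.61. None of the 4 was 2-fold or more lower on this scale, beside 0.627% of all entries.

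In adult against youth, 5 of 6 genes had the lower value in adult and 2 of 6 were lower beyond counting error, PMP22 and CDH19. Over all entries, 27.0% were lower beyond counting error and 52.7% had the lower value in adult. S100B was higher beyond counting error, as were 22.3% of all entries. The median difference of the 4 genes was -0.09, beside -0.02 over all entries, and ran from -0.15 to -0.06 under the other scalings. Again none was at least 2-fold lower, beside 1.07% of all entries. The call of CDH19 rests on 22 and 34 reads and was lost with an interval at 99%.

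In adult against kid, all 6 genes were lower beyond counting error and none was higher, beside 34.6% and 16.7% of all entries. The lower value was in adult for 62.5% of all entries. Of the 4 genes averaging at least 1 FPKM, PMP22 alone passed a 2-fold difference in log2(FPKM + 1), at -1.57, beside 1.22% of all entries. The median difference of the 4 genes was -0.70, and with SOX10 and CDH19 -0.59, beside -0.10 over all entries. SOX10 lost its call with an interval at 99% and after quantile normalization, where its ratio was 0.670. The 3 comparisons share libraries, so the youth values enter the first 2 with opposite sign. The order kid above youth above adult held for 5 of 6 genes and for 27.1% of all entries. Of these genes, SOX10 and CDH19 lie below the mean of 1 FPKM required of the entries. Both steps were beyond counting error for PMP22 alone.

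**Figure D2:**
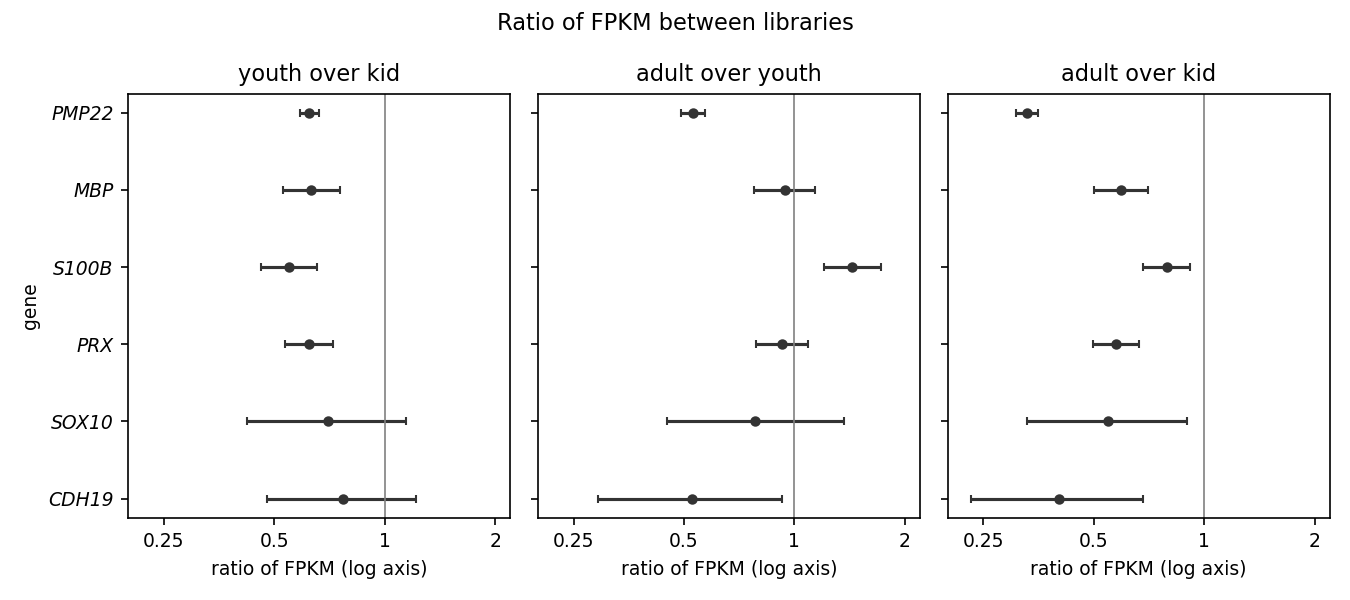
Ratio of FPKM (log axis) between libraries for each gene, in 3 panels, 1 per comparison; points are ratios and bars are exact 95% intervals of the reads, with a line at 1. In adult over youth, PMP22 (0.531) lies below 1, MBP (0.94) and PRX (0.923) include 1, and S100B (1.44) lies above.

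**Figure D3:**
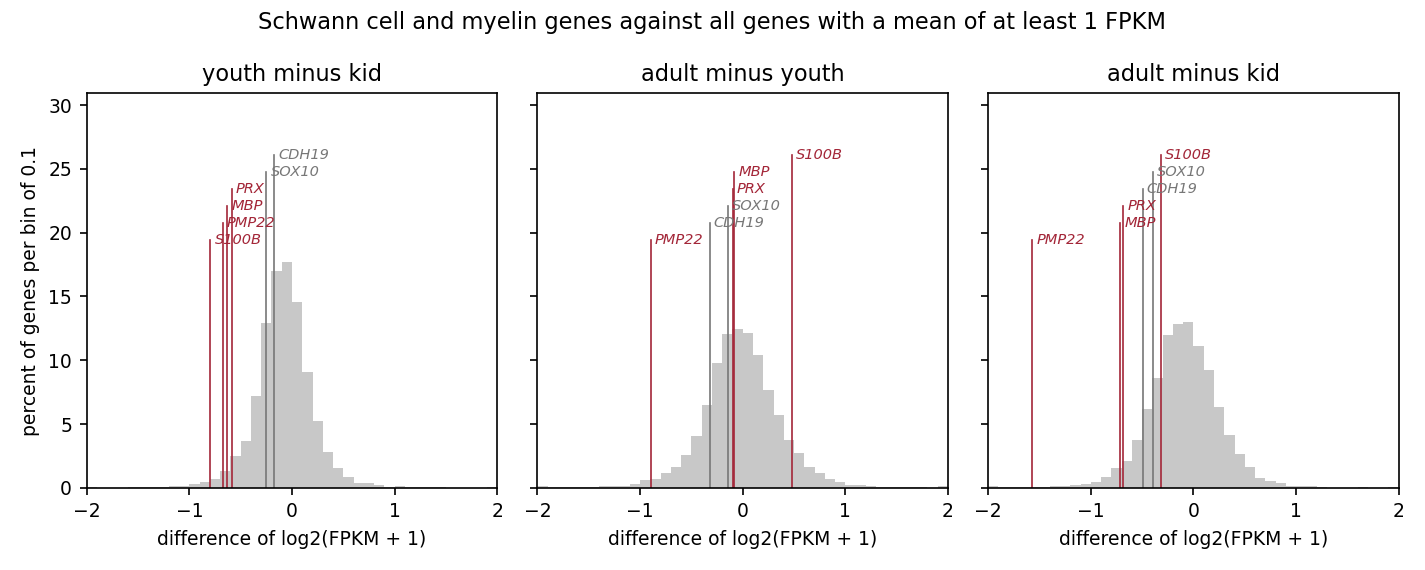
Grey bars give the percent of the 12121 entries with a mean of at least 1 FPKM in each bin of 0.1 of the difference of log2(FPKM + 1), with values beyond the axis in the end bins. Vertical lines mark the Schwann cell and myelin genes, in red those with a mean of at least 1 FPKM and in grey SOX10 and CDH19, and in adult minus kid PMP22 (-1.57) lies farthest to the left.

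Ratios of genes within a library do not change when a library is multiplied by a common factor. For each pair below, the shift of that ratio between libraries has an exact conditional 95% interval of the 4 read numbers. MBP and PRX kept their ratio to PMP22 between kid and youth within counting error, with shifts of 1.01 (0.839 to 1.22) and 1.001 (0.851 to 1.18). In adult, both stood higher relative to PMP22. MBP went from 0.236 of PMP22 in youth to 0.418 in adult, a shift of 1.77-fold (1.44 to 2.18). PRX went from 0.0778 to 0.135 of PMP22, a shift of 1.74-fold (1.45 to 2.08). S100B had the widest shift relative to PMP22 between these libraries, from 0.138 of PMP22 in youth to 0.373 in adult, or 2.71-fold (2.23 to 3.29). In kid it had stood at 0.156. For SOX10 the shift from youth to adult was 1.48 (0.841 to 2.59) and for CDH19 0.989 (0.548 to 1.75), and both intervals included 1.

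**Figure D4:**
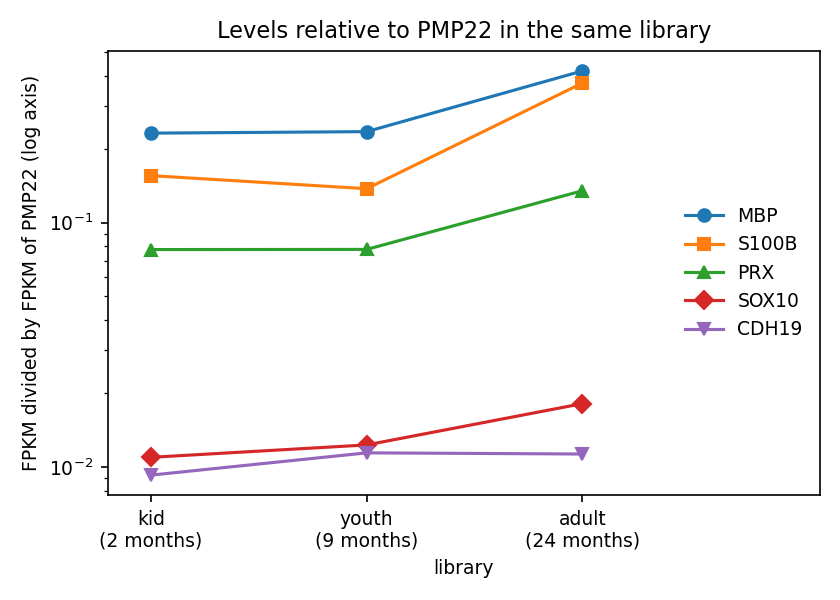
FPKM of MBP, S100B, PRX, SOX10 and CDH19 divided by the FPKM of PMP22 in the same library (log axis), for kid, youth and adult. The lines of MBP, S100B and PRX are higher in adult (0.418, 0.373 and 0.135) than in youth (0.236, 0.138 and 0.0778), while CDH19 stands at 0.0114 in youth and 0.0113 in adult.

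Other proteins of the myelin sheath were read from a list of 10 further genes, of which 8 had a mean of at least 1 FPKM. For this and the following lists, numbers of genes lower or higher are numbers beyond counting error. Over all entries, 26.9% were lower and 11.6% higher in youth against kid, and 27.0% and 22.3% in adult against youth. In adult against kid these shares were 34.6% and 16.7%. In youth, 4 of the 8 sheath genes were lower than in kid beyond counting error and none higher, with a median difference of -0.14. PMP2, a fatty acid-binding protein of peripheral myelin, had the largest difference of them. It stood at 9.84 FPKM in kid (235 reads), 3.11 in youth (70 reads) and 3.14 in adult (87 reads), 3.16-fold lower in youth than in kid (2.41 to 4.19), with an adult to youth ratio of 1.01 (0.727 to 1.40). PLLP, plasmolipin, a membrane protein of the sheath, stood at 3.72, 2.07 and 1.001 FPKM (80, 42 and 25 reads) and was lower at both steps, by 1.80-fold (1.22 to 2.67) and 2.07-fold (1.23 to 3.55).

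DRP2, the dystrophin-related partner of PRX, stood at 1.89, 1.04 and 0.933 FPKM (131, 68 and 75 reads). It was 1.82-fold lower in youth than in kid (1.34 to 2.47), while its adult to youth ratio of 0.894 included 1 (0.636 to 1.26), the order seen for PRX. NDRG1, a Schwann cell protein that many other cells make too, was the most abundant of the list between 17.2 FPKM in adult and 21.8 in kid. In adult against youth, 2 of the 8 were lower and 1 higher beyond counting error (median -0.19), and in adult against kid 5 were lower and 1 higher (median -0.34). The higher gene in both comparisons was MAL, at 12.7, 13.3 and 17.1 FPKM (227, 223 and 354 reads). It was 1.34-fold higher in adult than in kid (1.13 to 1.59). MAG, which sits where sheath and axon meet, stood at 0.715, 0.309 and 0.455 FPKM from 27, 11 and 20 reads. NCMAP, noncompact myelin associated protein, was at 4.87, 2.78 and 1.65 FPKM (104, 56 and 41 reads), 2.95-fold lower in adult than in kid (2.04 to 4.34). MAG and NCMAP were picked out after their values were seen, as were EGR2, ERBB3 and UGT8 below. Each of these was highest in kid. Of the 8 sheath genes, 3 had the higher value in youth than in kid, none beyond counting error. Among them, CLDN19 stood at 0.998 FPKM in kid and 1.54 in youth (11 and 16 reads), and GJC3 at 1.44 and 1.61 (18 and 19 reads). MAL, CLDN19 and GJC3, and genes below such as FABP4, CFD, CLDN11, S100A16 and DAG1, also fall outside the rule that named genes from each list.

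**Figure D5:**
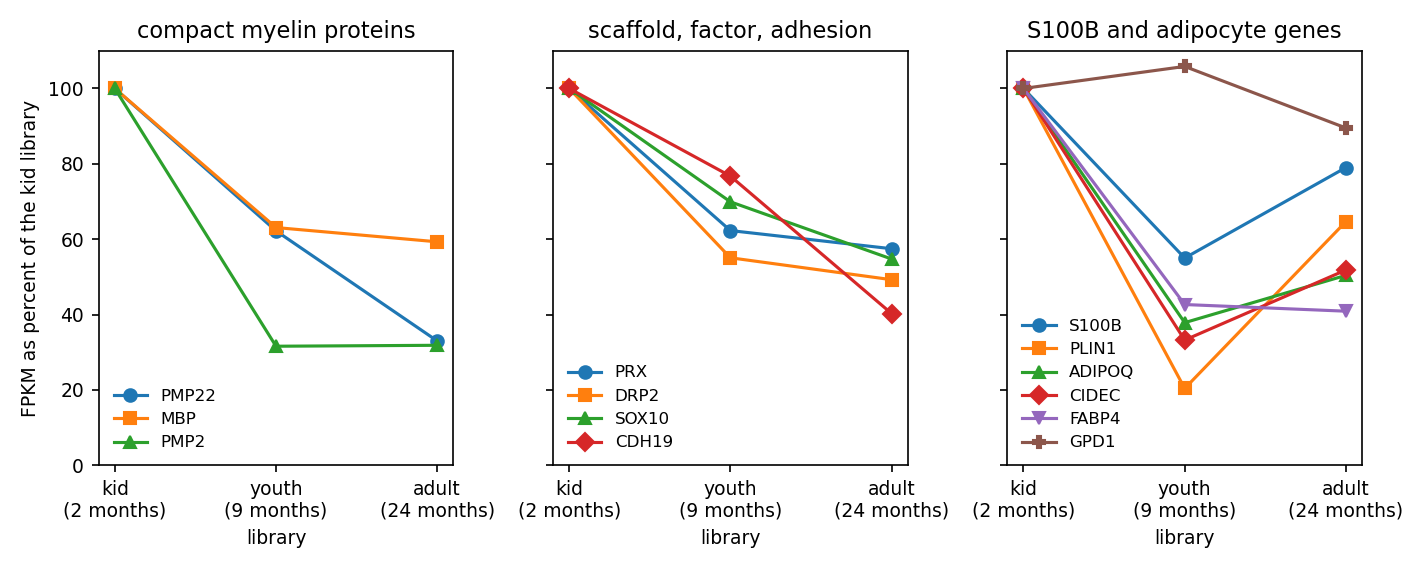
FPKM as percent of the kid library in the 3 libraries, for compact myelin proteins (left), for PRX, its partner DRP2, SOX10 and CDH19 (middle) and for S100B with 5 adipocyte genes (right); each point is 1 library. In adult, PMP22 is at 33.0% and MBP at 59.3% of kid, PMP2 is at 31.6% in youth and 31.9% in adult, and S100B is at 55.0% in youth and 79.0% in adult. PLIN1, ADIPOQ and CIDEC are lowest in youth like S100B, while GPD1 is lowest in adult. FABP4 is at 42.7% in youth and 40.9% in adult, which lie within counting error of each other.

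EGR2, the factor that acts with SOX10 on myelin genes and is also an immediate early gene in other cells, stood at 1.17, 0.540 and 0.381 FPKM (53, 23 and 20 reads) and was 2.17-fold lower in youth than in kid (1.31 to 3.71). Of 14 transcription factors listed, 8 had a mean of at least 1 FPKM, and EGR2 was not among them. Of these 8, 1 was lower and 1 higher beyond counting error in youth against kid, 4 and 2 in adult against youth, and 4 and 2 in adult against kid. JUN stood at 327, 362 and 245 FPKM, 1.11-fold higher in youth than in kid (1.06 to 1.16). NAB2 stood at 7.98, 6.89 and 11.1 FPKM, 1.61-fold higher in adult than in youth (1.26 to 2.05). ERBB3, the neuregulin receptor of Schwann cells, stood at 1.47, 1.07 and 0.957 FPKM (124, 85 and 94 reads), 1.38-fold lower in youth than in kid (1.04 to 1.83).

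LGI4, a protein secreted by Schwann cells that promotes myelination, was at 13.3, 8.74 and 9.75 FPKM, 1.53-fold lower in youth than in kid (1.32 to 1.76). DHH, the hedgehog ligand of Schwann cells, was at 2.02 and 2.34 FPKM in kid and youth and at 0.597 in adult (32, 35 and 11 reads), 3.92-fold below youth (1.95 to 8.56). Of the 8 signalling genes averaging at least 1 FPKM, 3 were lower and 1 higher beyond counting error in youth against kid (median -0.03), 3 lower in adult against youth (median -0.06) and 6 lower in adult against kid (median -0.30).

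Among 13 genes of the contact between axon and Schwann cell, 7 had a mean of at least 1 FPKM, with 4 lower and 2 higher beyond counting error in youth against kid (median -0.27). CADM3, the axonal partner of the Schwann cell adhesion molecule CADM4, stood at 3.04, 1.38 and 1.29 FPKM (61, 26 and 30 reads), 2.21-fold lower in youth than in kid (1.38 to 3.65). CADM4 was at 2.28, 1.57 and 1.25 FPKM, 1.83-fold lower in adult than in kid (1.26 to 2.67). L1CAM, an adhesion molecule of axons and non-myelinating Schwann cells, was lowest in kid and highest in youth, at 2.16, 3.44 and 2.79 FPKM, 1.59-fold higher in youth than in kid (1.30 to 1.95). In adult against kid, 5 of the 7 were lower and 1 higher (median -0.32). Of the genes listed for non-myelinating Schwann cells, 4 had a mean of at least 1 FPKM, L1CAM among them. In youth against kid, 3 of these 4 were lower and only L1CAM was higher (median -0.30). In adult against kid, 2 were lower and 1 higher (median -0.37).

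Enzymes of myelin lipids were mostly within counting error between youth and kid, where 1 of 6 was lower and none higher (median -0.05). That gene was GALC, which breaks down the myelin lipid galactosylceramide, at 5.53, 2.85 and 3.98 FPKM. In adult against kid, 4 of the 6 were lower and none higher (median -0.38). UGT8, which makes galactosylceramide, had a mean below 1 FPKM and was not among the 6. It was at 1.08, 0.891 and 0.341 FPKM (68, 53 and 25 reads), 3.16-fold lower in adult than in kid (1.97 to 5.22). Of 13 cholesterol synthesis genes, which Schwann cells share with all cells, 1 was lower and 2 higher in youth against kid (median 0.00), and 2 were lower and 2 higher in adult against kid (median -0.06).

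Markers of other cells that make some of these transcripts were read beside them. Of 14 adipocyte genes averaging at least 1 FPKM, 8 were lower and 3 higher beyond counting error in youth against kid (median -0.22), and 4 were lower and 7 higher beyond it in adult against youth (median 0.19). PLIN1, the lipid droplet coat protein, stood at 13.3, 2.72 and 8.61 FPKM, and ADIPOQ, the fat cell hormone, at 64.3, 24.3 and 32.4 FPKM, both lowest in youth as S100B was. FABP4, the fatty acid-binding protein of fat cells, stood at 161, 68.7 and 65.8 FPKM. Its adult to youth ratio of 0.959 included 1 (0.827 to 1.11). GPD1, a glycerol phosphate enzyme, stood at 171, 181 and 153 FPKM. CFD, the complement factor adipsin, stood at 5.46, 8.25 and 2.76 FPKM, and both were highest in youth. The adipocyte genes with an entry summed to 764, 583 and 612 FPKM. The part of fat cells in the S100B values was not tested.

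Of 14 fibroblast genes, 5 were lower and 6 higher beyond counting error in youth against kid (median 0.04). In adult against youth, 12 were lower and 1 higher beyond it (median -0.45). In adult against kid, 12 were lower and none higher beyond it (median -0.29). Their summed levels were 1239, 1473 and 1048 FPKM. The part of fibroblasts in the PMP22 values was not tested. Macrophage genes were lower in adult than in youth beyond counting error in 7 of 8 cases (median -0.85), from a summed 79.6 to 39.8 FPKM. Muscle fibre genes summed to 58893, 67644 and 71637 FPKM. FPKM is relative to all mapped reads, and the part of this share in the other values was not tested. Scaled without the 10 most abundant genes, the median difference of PMP22, MBP, PRX and S100B was -0.60 in youth minus kid (-0.65 before). In adult minus kid it was -0.69 (-0.70 before).

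Of 6 genes of the myelin-forming cell of the brain with an entry, ERMN was at 0 in all 3 libraries and MOBP, OPALIN and MYRF were at 0.0590 FPKM or less. CLDN11, a tight junction protein, stood at 1.09, 0.769 and 0.243 FPKM (27, 18 and 7 reads), and MOG at 5.91, 5.66 and 5.75 FPKM. Among genes listed for axons and neurons, NEFL, NEFH, SNAP25, CHAT and SLC18A3 were at 0 throughout. UCHL1, a hydrolase on that list, stood at 16.5, 14.9 and 24.1 FPKM, and which cells gave its reads was not tested. The other 9 genes of that list reached at most 0.944 FPKM. Of the pigment cell genes, which share SOX10 with Schwann cells, DCT and TYRP1 were listed at 0, and TYR, PMEL and MLANA stood at 0.718 FPKM or less. MITF stood at 18.0, 18.1 and 16.1 FPKM, KIT at 2.52, 2.09 and 0.822 FPKM and EDNRB at 4.57, 4.16 and 2.75 FPKM. These 3 genes, which other cells make too, were lower in adult than in kid and than in youth beyond counting error.

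The pattern most like that of PMP22 over the 3 libraries was sought among 6837 named genes averaging 5 FPKM or more, by the Euclidean distance of log2(FPKM + 1) after centring each gene on its own mean. The 5 nearest were the nuclear receptor NR4A1 (125, 75.6 and 39.6 FPKM, distance 0.047), the myogenic factor MYF6 (0.16), the growth arrest gene BTG2 (0.17), the acetylcholine receptor subunit CHRNA1 (0.19) and the transcription inhibitor ID1 (0.24). MBP (0.68) and PRX (0.69) lay farther off, with 254 and 280 genes nearer to PMP22, and S100B the farthest at 1.08, with 3349 nearer. The 5 genes outside the list nearest to the median pattern of PMP22, MBP, PRX and S100B were NFKBIA, ITGB4, KANSL1L, CYR61 and NSUN6, at distances from 0.018 to 0.044. With 3 libraries, such likeness describes these values only.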

How the data were processed

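The authors deposited 1 table of FPKM with 1 column per stage, matched to the samples by the stage letter in the sample titles. Per the submitters' processing notes, the tools included FastQC, TopHat2 and DESeq, with no version or role stated. Build, annotation, strand and how multi-mapping reads were counted: not given in the sources used here. By gene number, 21743 of 24689 entries matched the RefSeq table of ARS1.2, used for names only. Whole reads, lengths and totals were recovered from the FPKM steps (tolerance 5e-05 reads). All 16054 entries above 0 in 3 libraries gave whole reads, and the recovered reads made up 94.9% to 96.3% of the totals. Where reads and length share a common factor, fewer reads than the true number are returned and the interval is wider. The procedure was tested on simulated data.

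Differences used a pseudocount of 1 among 12121 entries with a mean of at least 1 FPKM. No test between stages was possible with 1 library per stage. The genes and the 25 context lists (259 genes, 241 with an entry, 10 of them by product text) were chosen with earlier results of these data known. From each list the rule named the most abundant gene and up to 3 with the largest difference at a mean of at least 1 FPKM, of which those nearest to myelin are described. Some genes outside this rule are described too. Intervals used scipy 1.17.1. No sequence was analysed. Some other genes of the sheath are not reported here.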

Additional observations from a re-analysis of the deposited data

How the results depend on the processing

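The alternatives run were pseudocounts of 0.1 and 5, other filters, 4 other scalings, members by symbol only and an interval at 99%. In 78 medians and counts under these settings, 77 stayed close, which for a count means within 1.5 times and for a median a move smaller than the median half-width of the genes' counting intervals in log2. The adult minus youth median of -0.09 moved within that width but by over 1.5 times, to -0.15 when scaled to a common FPKM sum and -0.06 with size factors. The exception was the count of genes lower beyond counting error in adult against youth, 1 of the 4 genes averaging at least 1 FPKM and 2 of all 6 without that filter, which lets in CDH19. In adult against kid that count went from 4 to 6 without the filter, which is at the limit of 1.5 times and was taken as close. The counts of genes at least 2-fold lower, 0 in youth against kid and adult against youth and 1 in adult against kid, were the same in every setting. The adult minus kid median of -0.70 was -0.51 with a pseudocount of 5, which understates low genes by construction, and -0.68 without MBP. Of 90 ratios of single genes, 86 kept their side, 4 lost their call (CDH19, S100B and SOX10, the latter in 2 settings) and none reversed. Scaling to a common FPKM sum moved the median of all entries in adult minus kid from -0.10 to -0.13, and size factors moved it to 0.02. No paired analysis was possible because each stage had 1 library. Depth limits SOX10, CDH19, MAG and EGR2, each with 53 reads or fewer per library.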

Other observations

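Relatives of S100B and PMP22 were read in the same way. Of 11 S100 family genes other than S100B with a mean of at least 1 FPKM, 4 were lower beyond counting error in youth against kid and none higher. Over all entries these shares were 26.9% and 11.6%. In adult against youth 2 were lower and 4 higher beyond it, beside 27.0% and 22.3% of all entries. In adult against kid 7 were lower and 1 higher beyond it (median -0.43), beside 34.6% and 16.7% of all entries. S100A2 stood at 35.3, 14.3 and 25.6 FPKM in kid, youth and adult, lowest in youth as S100B was. S100A12, a neutrophil protein, stood at 5.56, 1.92 and 1.22 FPKM (43, 14 and 11 reads). S100A10, the most abundant of them by its mean, stood at 192, 195 and 142 FPKM, and S100A16, at 125, 117 and 183 FPKM, was above it in adult. In the family of PMP22, EMP2 stood at 27.4, 24.9 and 18.5 FPKM, 1.49-fold lower in adult than in kid (1.38 to 1.60).

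Of 8 genes for laminin chains of the basal lamina and for the receptors that hold Schwann cells to it, 7 were lower in adult than in kid beyond counting error and 1 higher (median -0.24), beside 34.6% and 16.7% of all entries. The 4 laminin chains (LAMA2, LAMA4, LAMB1 and LAMC1) were lower, as were the integrins ITGA6, ITGB1 and ITGB4. ITGB4, also a marker of the perineurium, stood at 8.58, 5.48 and 5.01 FPKM, and the dystroglycan gene DAG1, the higher one, at 57.0, 59.9 and 60.1 FPKM. The RNA came from whole muscle, and the part of Schwann cells in the values of these 8 genes was not tested. Of 9 genes of demyelinating neuropathies with a mean of at least 1 FPKM, 6 were lower and 1 higher beyond counting error in adult against kid (median -0.31), for example SBF2 at 7.43, 5.85 and 4.95 FPKM and LITAF at 7.28, 7.04 and 4.39 FPKM.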
